A study of Mus musculus with 16 samples.

Results

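The 10 mouse CC chemokine genes described here, Ccl2, Ccl3, Ccl4, Ccl6, Ccl7, Ccl8, Ccl9, Ccl11, Ccl17 and Ccl27a, were followed through a time course of dorsal skin in which a TERT transgene was switched off or left on. The members were chosen by symbol: 12 of the 45101 probe sets of the array carried 1 of these 10 symbols alone. Of these, 11 probe sets, standing for 9 genes, exceeded the median intensity of the table (34.4) on 2 or more arrays and could be tested; Ccl3 did not pass. Where a gene had more than 1 probe set, the one with the highest mean stood for it.

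All mice were iK5-TERT (K5tTA-tetop-TERT) animals, in which the K5 promoter drives transgenic TERT in the basal layer of the epidermis and, in hair follicles, the outer root sheath. All had doxycycline in their drinking water in early life, which kept the transgene silent during development, and all were in TERT-induced anagen, the growth phase of the hair cycle, at day 60. Mice of the TERT-off cohort were injected with doxycycline at 8 µg per g body weight, which shuts the transgene, and mice of the TERT-on cohort with PBS, so the injected agent and the state of the transgene cannot be told apart. Biopsies of 3 cm2 without the subcutaneous fat were taken at 0, 6, 12 and 24 h from 2 mice per cohort, giving 16 arrays in 8 groups of 2. The labels list the TERT-off biopsies at 0 h as injected, whereas the study's text places them just before the injection and describes the biopsies as serial.

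Chemokines are small secreted proteins that guide leukocytes through G protein-coupled receptors, and the CC family is named for a pair of adjacent cysteines. Most of their genes lie in clusters. Ccl2, Ccl7, Ccl11 and Ccl8 belong to the monocyte chemoattractant and eotaxin group, whose members attract monocytes through Ccr2 (Ccl2 and Ccl7) and eosinophils through Ccr3 (Ccl11). Ccl3 and Ccl4 are the macrophage inflammatory proteins, Ccl6 and Ccl9 are rodent chemokines that bind Ccr1, Ccl17 attracts Ccr4-bearing T cells, and Ccl27a is a keratinocyte chemokine of the epidermis read by Ccr10. In the gene order of the mouse reference, Ccl2, Ccl7, Ccl11, Ccl12, Ccl8 and Ccl1 followed each other on chromosome 11, with no other protein-coding gene between them. A second run on the same chromosome held Ccl5, Ccl9, Ccl6, Ccl3 and Ccl4, so that 8 of the 10 members lay on chromosome 11, while Ccl17 lay on chromosome 8 and Ccl27a on chromosome 4.

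The arrays had like medians, 32.9 to 36.3, and no array repeated another. Tert itself read 8.32 to 16.1 in TERT-off skin and 22.6 to 64.6 in TERT-on skin over 6 to 24 h, and 185 to 200 in TERT-off and 216 to 357 in TERT-on skin at 0 h. The cohorts therefore did not overlap, and the TERT-on mice were also far below their own 0 h level after injection. The epidermal keratins Krt14 and Krt10 read 3191 or more on all arrays. On 1 array, TERT-on replicate 1 at 0 h, the 5′ probe set of Gapdh stood at 0.0599 of the 3′ one, against 0.977 to 1.12 on the others. At 0 h the hair shaft keratins also set a mouse apart: the summed intensity of 7 of them was 281 for replicate 1 of TERT-off and 17800 for its replicate 2, against 14710 in TERT-on replicate 1 and 5874 in TERT-on replicate 2, although all mice are labelled as in anagen. Without TERT-off replicate 1, 6 of the 8 members that could still be tested were called higher over 6 to 24 h (limma), and Ccl8 and Ccl17 were not. Because each array measured whole skin, more cells of a type and more RNA per cell cannot be told apart anywhere below.

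Over 6 to 24 h the TERT-off level exceeded the TERT-on level for all 9 testable members, from 0.67 for Ccl27a to 1.65 for Ccl9 on the log2 scale (limma, adjusted p below the threshold of 0.05). In that comparison 16.9% of all genes tested were called higher. The median difference of the 9 members was 1.28, against 0.04 over all genes. When TERT-on replicate 1 was left out, 2 of the 9 passed (Ccl6 and Ccl8), and when TERT-on replicate 2 was left out none did, with 8 at an unadjusted p under 0.05 and all 9 differences still positive (limma). The time courses divided the genes further. Ccl2, Ccl7 and Ccl4 stood apart from the others by a late burst, in which TERT-off skin was below TERT-on skin at 6 h and several-fold above it at 24 h. Ccl6, Ccl9 and Ccl27a had higher values on all TERT-off than on all TERT-on arrays after injection. The share of all genes without such overlap is not given here. Ccl8, Ccl11, Ccl17 and Ccl27a differed between the cohorts by smaller amounts than Ccl6 and Ccl9, with no late burst.

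**Figure D1:**
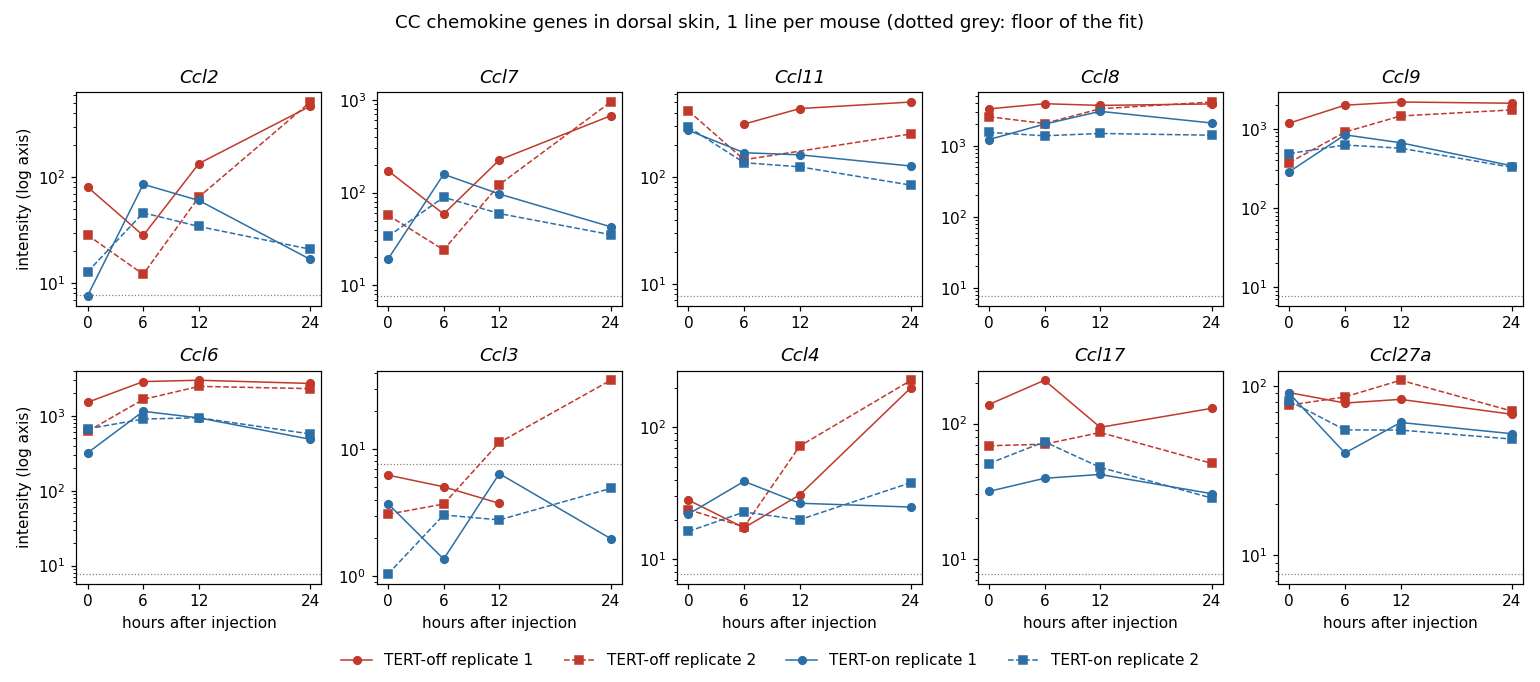
Intensity (log axis) of the 10 genes over the hours after injection. Each line joins the arrays of a mouse (TERT-off in red, TERT-on in blue), and the dotted line is the floor of the fit (7.71). Missing values have no point, and the line runs straight between the measured points on either side. Ccl2, Ccl7 and Ccl4 were highest at 24 h in both TERT-off mice. For Ccl6, Ccl9, Ccl8 and Ccl27a both TERT-off mice were above both TERT-on mice at 6, 12 and 24 h.

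Ccl2, the main monocyte attractant, showed the widest swing. In TERT-off replicate 1 it read 80.8, 28.2, 134.5 and 468 at 0, 6, 12 and 24 h, and in TERT-off replicate 2 it read 28.4, 12.1, 65.0 and 512. In TERT-on replicate 1 it read 7.58, 85.7, 60.2 and 16.8, and in TERT-on replicate 2 it read 12.8, 46.1, 34.3 and 20.9. Both TERT-off mice were thus lowest at 6 h and highest at 24 h, and both TERT-on mice were highest at 6 h. At 24 h the TERT-off mean exceeded the TERT-on mean by 4.71 ± 0.55 on the log2 scale (SE, n = 2 each), or 26.2-fold, with a limma adjusted p of 0.0050. At 6 h the difference was -1.77 ± 0.55 and at 0 h it was 2.27 ± 0.55, neither of which passed (limma adjusted p = 0.11 and 0.42).

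Ccl7, which lies next to Ccl2 and attracts monocytes through the same receptor, followed it closely. It read 172, 58.9, 225 and 674 in TERT-off replicate 1 and 57.3, 24.1, 122 and 947 in TERT-off replicate 2. The TERT-on mice had 19.2, 158, 96.6 and 42.8 in replicate 1 and 33.7, 89.1, 59.5 and 35.2 in replicate 2. Again the TERT-off mice were at their minimum when the TERT-on mice were at their maximum, and the cohorts were far apart at 24 h. The difference at 24 h was 4.36 ± 0.56 on the log2 scale, or 20.6-fold (limma adjusted p = 0.0060). Across the 16 arrays, which came from 4 mice, the log2 values of Ccl2 and Ccl7 had a Pearson r of 0.993, the highest of all pairs of members.

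Ccl4, a chemokine made by activated myeloid and T cells, lies in the second run of chromosome 11 and took part in the same burst. It read 28.1, 17.3, 30.8 and 200.5 in TERT-off replicate 1 and 23.8, 17.6, 72.2 and 228 in TERT-off replicate 2. TERT-on values were 22.0, 38.9, 26.6 and 24.9 in replicate 1 and 16.2, 22.8, 19.9 and 38.2 in replicate 2. The TERT-off arrays at 24 h stood above all others, of which the highest was 72.2. The difference at 24 h was 2.79 ± 0.40 on the log2 scale, or 6.94-fold (limma adjusted p = 0.0096). Ccl3, the neighbour of Ccl4, reached 35.0 on the array of TERT-off replicate 2 at 24 h and 11.3 on that mouse's array at 12 h, while its value at 24 h in TERT-off replicate 1 was missing. Its TERT-on values lay between 1.03 and 6.42, all under the floor of 7.71, so Ccl3 was not measured well enough to compare.

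The late burst was tested as a contrast of its own, chosen after the values had been seen. Within TERT-off skin, 3 of the 9 genes rose between 6 and 24 h, Ccl2 by 4.73, Ccl7 by 4.41 and Ccl4 by 3.61 on the log2 scale, where 0.867% of all genes were called higher. Per mouse, the ratio of 24 h to 6 h for Ccl2 was 16.6 in TERT-off mouse 1 and 42.3 in TERT-off mouse 2, against 0.196 in TERT-on replicate 1 and 0.453 in TERT-on replicate 2. For Ccl4 this ratio was 11.6 and 12.9 in TERT-off skin, and 0.639 and 1.67 in TERT-on skin. Within TERT-on skin no member passed in this contrast (limma), and neither did any other of the 12589 genes tested. An unadjusted p under 0.05 was found for 4 of 9 members, against 383 of all 12589 genes (limma). Ccl2 was at -1.75 and Ccl7 at -1.61.

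The difference between the cohorts at 24 h less that at 6 h was called for the same 3 genes, at 6.48 ± 0.75 for Ccl2, 6.01 ± 0.76 for Ccl7 and 3.56 ± 0.54 for Ccl4 (limma adjusted p = 0.0091, 0.014 and 0.034). In this test 0.207% of all genes, 26 of 12579, were called higher. Ccl9 at 1.62 and Ccl11 at 1.30 did not pass (limma adjusted p = 0.42 and 0.45). These calls, and all calls at 24 h, were lost when either TERT-on mouse was left out, which leaves 1 array in each TERT-on group; the Ccl2 difference at 24 h was then 4.55 or 4.87 (limma adjusted p = 0.11 or 0.13). Without TERT-off replicate 2 the 5 genes were still called at 24 h, but the burst contrasts had no call, and without TERT-off replicate 1 the Ccl4 difference at 24 h less 6 h no longer passed (limma adjusted p = 0.12). That Ccl4 call was the least stable, also missing the threshold without a filter, with quantile normalization, with all arrays taken as independent, and with the mouse or the replicate number as a fixed block (limma adjusted p = 0.051 to 0.075).

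**Figure D2:**
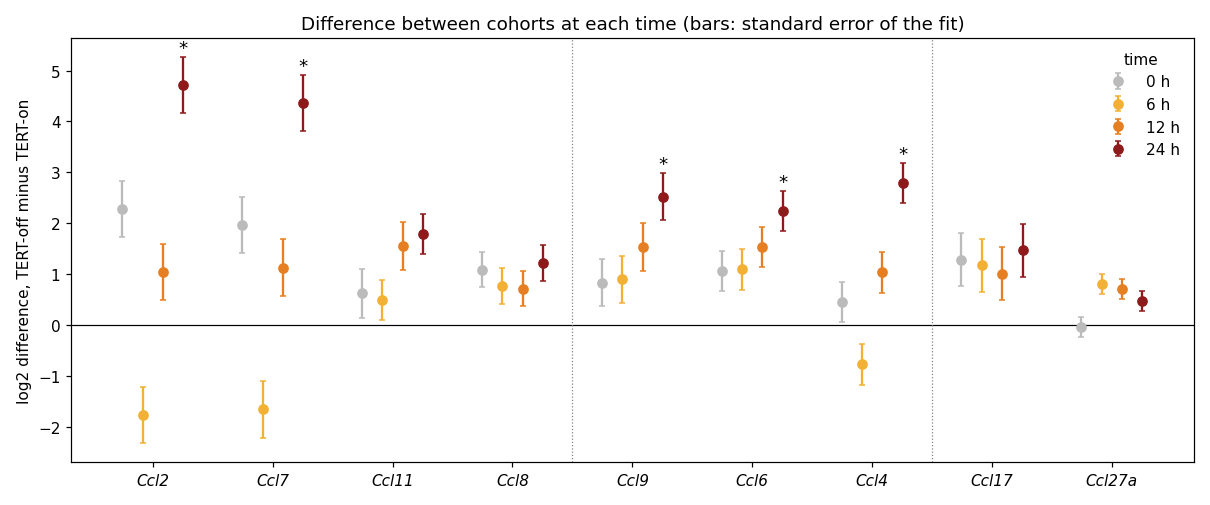
Log2 difference between TERT-off and TERT-on skin for the 9 testable genes at 0, 6, 12 and 24 h, with the standard error of the limma fit as bars and an asterisk where the adjusted p was under 0.05; dotted lines set off the monocyte chemoattractant and eotaxin group, the second run on chromosome 11, and the 2 genes on other chromosomes. Ccl2, Ccl7 and Ccl4 lie below 0 at 6 h and have the highest points at 24 h.

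Ccl8 and Ccl11 share the chromosomal stretch of Ccl2 and Ccl7 but had another time course. Ccl8, in mice a ligand of Ccr8, read 3316, 3922, 3711 and 3893 in TERT-off replicate 1 and 2576, 2064, 3334 and 4142 in TERT-off replicate 2. It read 1225, 2022, 3061 and 2099 in TERT-on replicate 1 and 1548, 1386, 1494 and 1412 in TERT-on replicate 2. The TERT-off mice were higher at each time, 0 h included. Over 6 to 24 h the cohorts still overlapped, since TERT-on replicate 1 at 12 and 24 h lay above the lowest TERT-off array, 2064. Over 6 to 24 h Ccl8 was higher by 0.90 ± 0.21 on the log2 scale (limma adjusted p = 0.013, and 0.071 without TERT-off replicate 1), and at 0 h the difference was 1.09 ± 0.35 (limma adjusted p = 0.54). At 24 h less 6 h it was 0.46 ± 0.47, which did not pass.

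Ccl11, the eotaxin, lacked a value on TERT-off replicate 1 at 0 h and on TERT-off replicate 2 at 12 h. TERT-off replicate 1 read 313, 438 and 504 at 6, 12 and 24 h, and TERT-off replicate 2 read 417, 145 and 253.5 at 0, 6 and 24 h. The TERT-on mice read 274, 169, 162 and 127 in replicate 1 and 294, 136, 125 and 84.0 in replicate 2. Both TERT-on mice were thus below their 0 h value at all later times, and TERT-off replicate 2 was as low at 6 h. Over 6 to 24 h the TERT-off mean of Ccl11 exceeded the TERT-on mean by 1.28 ± 0.26 (log2) (limma adjusted p = 0.0090, 5 TERT-off arrays and 6 TERT-on arrays). Of the eosinophils it is known to attract, 4 of 6 marker genes were measured, none of them passed the filter, and Epx, the eosinophil peroxidase, stayed between 2.83 and 11.4. Prg2 stayed between 2.62 and 10.9. Siglecf read 15.75 to 20.7 in TERT-off and 9.33 to 10.35 in TERT-on skin at 0 h. Over 6 to 24 h it read 9.5 to 26.7 in TERT-off and 7.56 to 12.05 in TERT-on skin, and no difference was tested.

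**Figure D3:**
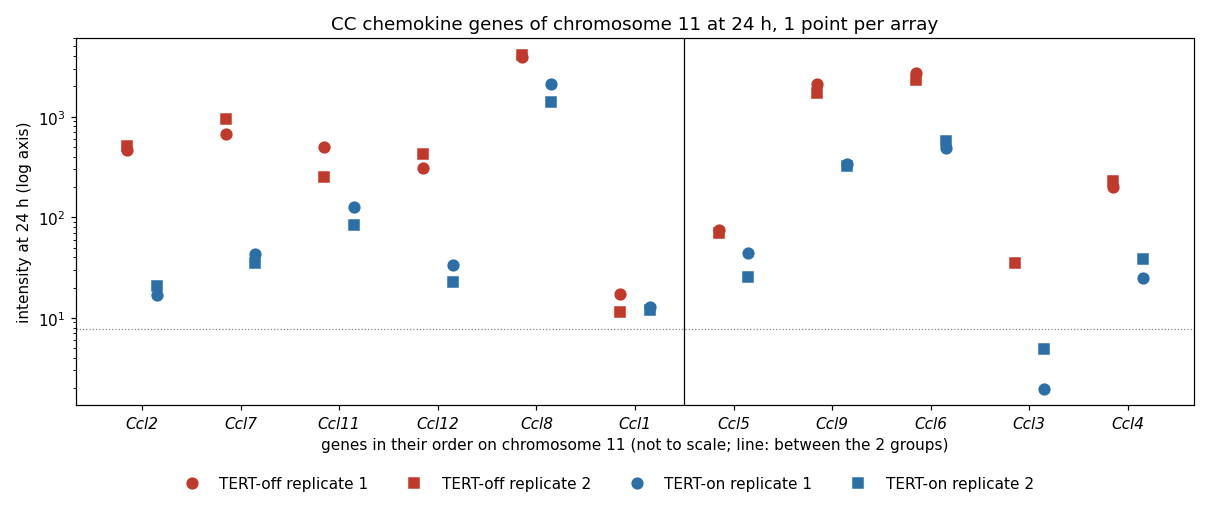
Intensity at 24 h (log axis) of CC chemokine genes in their order on chromosome 11, with 1 point per array, TERT-off in red to the left and TERT-on in blue to the right of each gene; the solid line separates the 2 runs and the dotted line is the floor. Ccl2, Ccl7 and Ccl12 are far apart between the cohorts, Ccl11 and Ccl8 less so, and Ccl1 overlaps.

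Ccl12, a Ccr2 ligand that is not among the 10 genes but lies between Ccl11 and Ccl8, was also highest at 24 h in both TERT-off mice and at 6 h in both TERT-on mice. It read 141, 33.5, 98.9 and 307 in TERT-off replicate 1 and 18.8, 39.1, 119 and 421 in TERT-off replicate 2. In TERT-on skin it read 13.6, 88.1, 85.7 and 33.3 in replicate 1 and 19.7, 50.4, 32.2 and 22.7 in replicate 2. At 24 h its TERT-off mean exceeded the TERT-on mean by 3.71 ± 0.74 (log2) (limma adjusted p = 0.033) and did not pass over 6 to 24 h (limma adjusted p = 0.057). Unlike Ccl2 and Ccl7 it was not at its minimum at 6 h in TERT-off replicate 2, and its difference at 24 h less that at 6 h, 4.59 ± 1.01, did not pass (limma adjusted p = 0.15).

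As a group, Ccl2, Ccl7, Ccl8 and Ccl11 had a median log2 difference of 1.53, -0.58, 1.09 and 3.08 at 0, 6, 12 and 24 h. The 5 other testable members had 0.83, 0.90, 1.03 and 2.24. At 6 h both groups held genes of either sign, Ccl2 and Ccl7 being negative in the first and Ccl4 in the second. At 24 h, 2 of the 4 and 3 of the 5 were called higher, where 1.83% of all genes were called. No difference between these groups was tested.

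Ccl6 and Ccl9, neighbours in the second run on chromosome 11 and both ligands of Ccr1 produced by myeloid cells, did not overlap between the cohorts at 6 to 24 h. Ccl6 read 1515, 2865, 2987 and 2705 in TERT-off replicate 1 and 619.8, 1656, 2471 and 2307 in TERT-off replicate 2. It read 319.8, 1149, 939 and 486 in TERT-on replicate 1 and 670, 906, 943 and 572.5 in TERT-on replicate 2. Over 6 to 24 h the lowest TERT-off array, 1656, lay above the highest TERT-on array, 1149. The difference was 1.62 ± 0.25 on the log2 scale over these times, or 3.08-fold (limma adjusted p = 0.0028), and 2.24 ± 0.40 at 24 h (limma adjusted p = 0.022).

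Ccl9 read 1181, 1990, 2183 and 2108 in TERT-off replicate 1 and 373.5, 911, 1454 and 1735 in TERT-off replicate 2, against 287, 839.5, 666 and 341 in TERT-on replicate 1 and 487, 624, 569 and 326 in TERT-on replicate 2. As for Ccl6, the cohorts did not overlap after injection, and TERT-off replicate 2 was within the TERT-on range at 0 h. The difference over 6 to 24 h was 1.65 ± 0.29 on the log2 scale, or 3.14-fold (limma adjusted p = 0.0045), and at 24 h it was 2.52 ± 0.46 (limma adjusted p = 0.025). Each gene had a second probe set, and these gave 1.87 for Ccl6 and 1.86 for Ccl9 over 6 to 24 h, likewise with no overlap. In both TERT-on mice the values of Ccl6 and Ccl9 were higher at 6 h than at 24 h, as for Ccl2 and Ccl7. The log2 values of Ccl6 and Ccl9 had a Pearson r of 0.982 across the 16 arrays.

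The upstream sequences of Ccl6, Ccl9 and Ccl8 are shown because Ccl6 and Ccl9 moved together on the arrays and Ccl8 is the member of the first run for which a window was found. Each is 250 bases that end just before the annotated start, 5′ to 3′ on the strand of the gene, from RefSeq in build GRCm38.p6; windows were found for 6 of the 10 members. Capitals mark matches, on either strand, to 5 searched motifs: the TATA box (TATAAA), AP-1 (TGANTCA), GAS (TTCNNNGAA), PU.1 (GAGGAA) and NF-kB, some of which overlap each other.
Ccl6, chr11:83593088-83593337, minus strand: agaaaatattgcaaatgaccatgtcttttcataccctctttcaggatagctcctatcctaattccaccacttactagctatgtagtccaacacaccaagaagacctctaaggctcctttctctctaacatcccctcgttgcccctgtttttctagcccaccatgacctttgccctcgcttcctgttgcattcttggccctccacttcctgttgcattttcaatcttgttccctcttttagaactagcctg
Ccl9, chr11:83578637-83578886, minus strand: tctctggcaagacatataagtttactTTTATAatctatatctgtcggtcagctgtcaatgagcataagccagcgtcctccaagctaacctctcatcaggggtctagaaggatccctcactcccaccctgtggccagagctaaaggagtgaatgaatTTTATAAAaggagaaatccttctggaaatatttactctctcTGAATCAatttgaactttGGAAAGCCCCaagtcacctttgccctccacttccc
Ccl8, chr11:82114935-82115184, plus strand: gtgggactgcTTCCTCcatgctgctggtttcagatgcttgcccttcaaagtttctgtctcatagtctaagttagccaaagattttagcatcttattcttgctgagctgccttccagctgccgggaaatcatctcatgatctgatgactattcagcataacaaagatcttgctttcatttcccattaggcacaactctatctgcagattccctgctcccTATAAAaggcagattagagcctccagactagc
The Ccl9 window held 3 matches to TATAAA, 1 to AP-1 and 1 to NF-kB, the Ccl8 window 1 match to TATAAA that began 32 bases before the start and 1 to PU.1, and the Ccl6 window none of the 5. Of all 32851 windows of this length, 12.4% held TATAAA, 6.75% AP-1, 7.02% GAS, 23.3% PU.1 and 5.00% NF-kB. When aligned, the Ccl6 and Ccl9 windows were identical at 50.0% of positions, within the 47.2 to 54.2% of the pairs of members. The pair that moved together thus shared no searched motif in these windows.

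Ccl17 and Ccl27a lie on other chromosomes. Like Ccl8 and Ccl11 on chromosome 11 (limma adjusted p = 0.090 and 0.054), they were not called at 24 h. Ccl17, a dendritic cell product that attracts T cells, read 138, 209, 93.8 and 129.6 in TERT-off replicate 1 and 68.5, 70.4, 86.0 and 50.9 in TERT-off replicate 2. It read 31.5, 39.4, 42.1 and 30.3 in TERT-on replicate 1 and 50.6, 73.3, 47.5 and 28.2 in TERT-on replicate 2. TERT-off replicate 1 was the highest mouse at every time, 0 h included, and the cohorts overlapped. The difference over 6 to 24 h was 1.22 ± 0.32 on the log2 scale (limma adjusted p = 0.019), and at 0 h it was 1.28 ± 0.52 (limma adjusted p = 0.59). Without TERT-off replicate 1 it was 0.71 over 6 to 24 h and no longer passed (limma adjusted p = 0.069).

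Ccl27a, the epidermal chemokine, read 91.1, 79.0, 83.1 and 67.8 in TERT-off replicate 1 and 76.8, 85.9, 108 and 70.8 in TERT-off replicate 2, against 90.2, 40.0, 60.7 and 52.1 in TERT-on replicate 1 and 81.3, 54.8, 54.7 and 48.4 in TERT-on replicate 2. The 4 mice were alike at 0 h, and after injection all TERT-off arrays (67.8 or more) were above all TERT-on arrays (60.7 or less). The difference was -0.03 ± 0.20 at 0 h and 0.67 ± 0.12 over 6 to 24 h on the log2 scale, or 1.59-fold (limma adjusted p = 0.0053). A pair of further probe sets list Ccl27a beside other genes and could not be assigned to it. One of them, with a stronger signal, read 1083 to 2117 in TERT-off skin and 568 to 961 in TERT-on skin over 6 to 24 h, a difference of 0.88 ± 0.17 (limma adjusted p = 0.0060). At 24 h alone it differed by 0.28 ± 0.28 (limma adjusted p = 0.63). The other overlapped over 6 to 24 h, with 61.3 to 92.6 in TERT-off and 48.7 to 69.4 in TERT-on skin. Its difference was 0.48 ± 0.12 (limma adjusted p = 0.016).

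At single times other than 24 h no member passed on the probe set that stood for it, while the second Ccl6 probe set passed at 12 h, at 1.82 ± 0.35 (limma adjusted p = 0.036). With an unadjusted p under 0.05 there were 5 of 9 at 0 h, 6 at 6 h, among them Ccl2 and Ccl7 with lower values in TERT-off skin, and 5 at 12 h, against 999, 2955 and 3769 of all 12589 genes (limma). Without the 0 h array of TERT-on replicate 1, whose Gapdh ratio was low, 2 of 9 had such a p at 0 h. The differences at 0 h were positive for 8 of the 9 genes and were above 1 on the log2 scale for Ccl2, Ccl7, Ccl17, Ccl8 and Ccl6, with TERT-off replicate 1 the highest mouse at 0 h for each of these 5. When the change from 0 h was taken within a cohort, no member was called in either cohort (limma). Few genes were called at all, 0.358% higher and 0.135% lower in TERT-off skin and 0.0397% and 0.143% in TERT-on skin. An unadjusted p under 0.05 was found for 4 of 9 members in TERT-off and 5 in TERT-on skin. Over all genes it was found for 2245 of 12579 and 2473 of 12589 (limma). The second Ccl6 probe set, which lacks a value for TERT-off replicate 1 at 0 h, did pass within TERT-off skin, at 2.67 ± 0.36 (limma adjusted p = 0.014). No member was called for the difference between the cohorts in that change either, where only 1 of all 12579 genes was called. An unadjusted p under 0.05 was found there for 1 of 9 members and 1802 of all genes (limma). The late burst of Ccl2, Ccl7 and Ccl4 did not rest on the 0 h arrays, since it compared 24 h with 6 h.

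Among the other CC chemokines, 6 of 11 could be tested, and 2 were higher in TERT-off skin over 6 to 24 h: Ccl5, a T cell and myeloid chemokine, by 0.78, and Ccl22, a Ccr4 ligand like Ccl17, by 0.71 on the log2 scale. Of the receptors, 9 of 14 could be tested and 6 were higher, with none lower. Ccr1, the receptor of Ccl6, Ccl7 and Ccl9, was higher by 1.82 ± 0.38 (limma adjusted p = 0.0078), with 33.0 to 166 in TERT-off and 14.1 to 63.3 in TERT-on skin. Both TERT-off mice were already above both TERT-on mice at 0 h, where Ccr1 read 71.9 and 21.1 against 10.0 and 11.45. Ccr2, the receptor of Ccl2, Ccl7 and Ccl12 on monocytes, was higher by 1.40 ± 0.34 (limma adjusted p = 0.014). Ccr6 was higher by 1.46 and Ccr7, which guides dendritic cells to lymph nodes, by 1.42, the last against TERT-on values of 4.25 to 8.31 that lay near the floor. The receptors of the remaining members were not above the filter: the highest intensity on any array was 9.17 for Ccr3, 11.6 for Ccr4, 13.1 for Ccr8 and 4.56 for Ccr10.

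None of the 9 receptors tested was called in the burst contrast, where 6 differences were positive and the range was -0.98 to 2.17. Ccr1 read 77.6 at 6 h and 140 at 24 h in TERT-off replicate 1, and 33.0 and 166 in TERT-off replicate 2. Its TERT-on values at these times were 40.35 and 20.8 in replicate 1, and 16.2 and 14.1 in replicate 2. Ccr2 read 895, 1183, 1204 and 528 in TERT-off replicate 1 and 252, 455, 1023 and 681 in TERT-off replicate 2, against 175.5, 278, 482 and 359.5 in TERT-on replicate 1 and 277, 243, 258 and 233 in TERT-on replicate 2. Its highest TERT-off values came at 12 h, and the difference at 24 h less that at 6 h was -0.44 ± 0.76 (limma adjusted p = 0.90).

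Cytokines that are known to induce CC chemokines, together with feedback genes of NF-kB, made up a list of 19, of which 14 could be tested and 10 were higher over 6 to 24 h. Of these, Vcam1, an adhesion molecule for monocytes, was higher by 1.37, the alarmin Il33 by 1.30, Il1b by 1.23 and Tslp by 0.91 on the log2 scale. Il1b, a myeloid cytokine, shared the late burst. It read 82.8, 60.6, 121 and 532 in TERT-off replicate 1 and 48.5, 40.8, 152 and 409 in TERT-off replicate 2, against 33.5, 109, 52.6 and 55.2 in TERT-on replicate 1 and 35.7, 68.6, 45.3 and 60.3 in TERT-on replicate 2. Its difference at 24 h less that at 6 h was 3.81 ± 0.40 (limma adjusted p = 0.0091). Il6, named after its values were seen, was called in this contrast too (limma adjusted p = 0.037), with 102 and 118.5 in TERT-off skin at 24 h, against 5.55 and 5.18 in TERT-on skin. Its values in TERT-off skin at 6 h and TERT-on skin at 24 h lay under the floor, so the size of its difference was not measured. Il1b and Il6 were the only genes of the list called in that contrast.

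Markers of macrophages and monocytes were also higher in TERT-off skin, but their summed intensity there was highest at 12 h rather than 24 h. Of the macrophage and monocyte genes, 13 of 14 tested were higher in TERT-off skin over 6 to 24 h, among them Itgam by 1.95, Folr2 by 1.79, Cd163 by 1.71 and C1qb by 1.53 on the log2 scale. The summed intensity of the 11 of them with a value on all arrays was 5948 to 13050 at 6 h, 13220 to 13900 at 12 h and 9369 to 10020 at 24 h in TERT-off skin, against 3812 to 3917, 3325 to 6168 and 3261 to 4437 in TERT-on skin. At 0 h it was 4160 to 6570 in TERT-off and 2585 to 4433 in TERT-on skin. None of these 14 genes was called for the difference at 24 h less that at 6 h (limma, 2 at an unadjusted p under 0.05).

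Neutrophil genes differed most at 24 h. Of 5 tested, 4 were higher over 6 to 24 h, S100a9 by 3.27, S100a8 by 2.13, Csf3r by 1.99 and Cxcr2 by 1.19. The other, Ngp, named after its values were seen, was at -0.09 and did not pass. Cxcr2 was also called for 24 h less 6 h at 4.28 (limma adjusted p = 0.039). The sum of the 3 with a value on every array was 431 to 818 at 6 h and 4837 to 4958 at 24 h in TERT-off skin, against 113 to 398 at 6 h and 122 to 207 at 24 h in TERT-on skin. S100a9 alone read 4784 and 4604 in TERT-off skin at 24 h and made up most of this sum. The cohorts already differed at 0 h, when the sum was 244 to 442 in TERT-off and 55.2 to 78.7 in TERT-on skin. S100a9 then read 411 and 227.5 in TERT-off skin, against 54.9 and 39.8 in TERT-on skin. Of the other 6 neutrophil genes listed, 4 were measured and not above the filter (Camp, Ltf, Elane and Mpo, named after their values were seen), and 2 had no probe set of their own. Of the mast cell genes 8 of 10 were higher, led by Hdc at 1.95, Cpa3 at 1.73 and Ms4a2 at 1.61, 1 was lower (Tpsab1, -1.42) and Kit at -0.40 did not pass; these last, as Cxcr2 in the second contrast, were named after their values were seen. The summed intensity of 9 mast cell genes was 2499 to 2807 in TERT-off and 1053 to 2043 in TERT-on skin at 0 h. The part of any of these cell types in the chemokine differences was not tested.

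**Figure D4:**
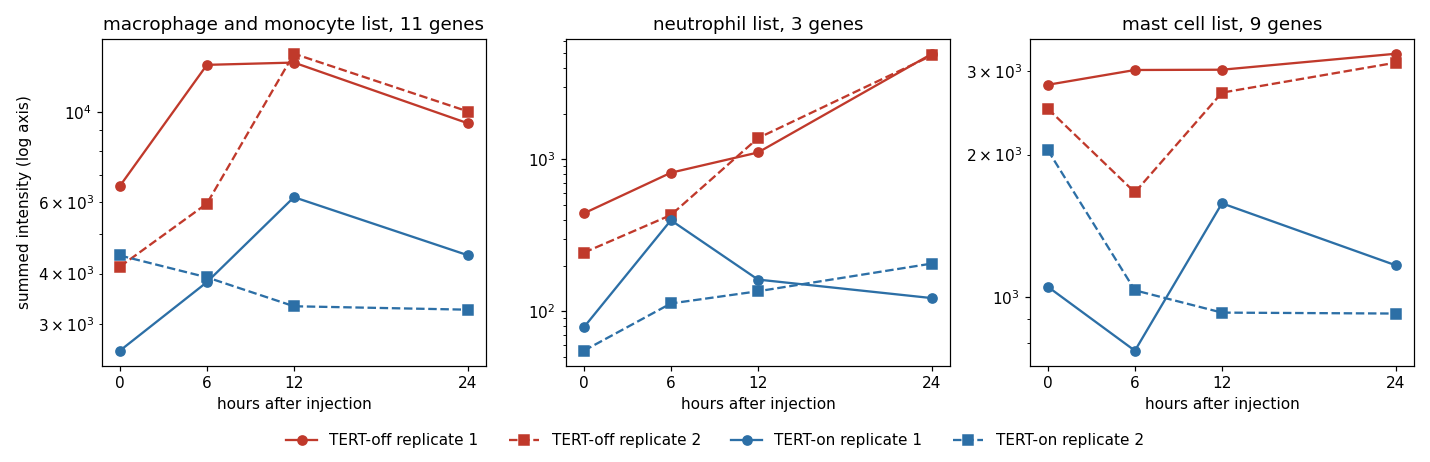
Summed intensity (log axis) of macrophage and monocyte, neutrophil and mast cell genes with a value on all arrays over the hours after injection. Each line joins the arrays of a mouse (red, TERT-off; blue, TERT-on). The neutrophil sum reached 4837 to 4958 in both TERT-off mice at 24 h, whereas the macrophage sum of the TERT-off mice was higher at 12 h than at 24 h.

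Against the 16.9% of all genes called higher over 6 to 24 h, other cell types had these counts. Of the Langerhans and dendritic cell genes 3 of 11 were higher, of T and NK cell genes 2 of 5, of fibroblast genes 7 of 9 with a median difference of 0.59, and of endothelial genes 6 of 8 with a median of 0.59. Basal keratinocyte genes had 2 of 8 higher and suprabasal ones 1 higher and 1 lower of 9. Hair shaft keratins went the other way, all 11 tested being lower, with a median of -4.84.

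The genes whose log2 profile over the arrays was most like the mean of Ccl2, Ccl7, Ccl8 and Ccl11 were Akr1b8 (Pearson r = 0.959), Slc16a1 (0.954), Ripk3 (0.949), Ecscr (0.940) and Timp1 (0.936). For the other members the closest gene was Il1b for Ccl4 (0.946), Gda for Ccl6 (0.959), Cd53 for Ccl9 (0.963), Cd55 for Ccl17 (0.886) and Raph1 for Ccl27a (0.913). All these values are descriptions over 16 arrays that share 4 mice. Within the family the lowest likeness to Ccl2 was that of Ccl27a (-0.06), and Ccl11, on the same stretch as Ccl2, had 0.38 over the 14 arrays that measured it.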

How the data were processed

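RNA of whole dorsal skin was hybridised to 16 Affymetrix Mouse Genome arrays. The table deposited by the authors gives 1 linear intensity for each probe set and array, from the scanner software and dChip (invariant-set normalization, difference of perfect-match and mismatch probes); versions are not given in the sources used here. Of 45101 probe sets, 34958 had 1 gene symbol, 932 several and 9211 none, from GEO's platform annotation; 64 control probe sets were left out, and 1425 cells were empty. Values under the 20th percentile (7.71) were raised to it before log2, and the tests took the 25576 probe sets of 12589 genes that exceeded the median (34.4) on 2 or more arrays.

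All tests came from 1 limma fit (version 3.58.1, R 4.3.3, statmod 1.5.0) of 8 groups, in which mouse was a random effect (correlation 0.073), an intensity trend and two-sided p-values adjusted by Benjamini-Hochberg over all probe sets (threshold 0.05). Nothing says whether the mice differed in litter or day, and the 2 mice of a cohort limit the precision. A permutation test of 2 against 2 could not go below p = 0.333 and was not used. The named genes were all 10 members, of each other list up to 4 called genes with the largest difference over 6 to 24 h, and the genes closest in profile. The members and all gene lists were chosen with earlier results of these data known, and the contrasts of 24 h against 6 h were added after the values were seen. The study's SAM analysis was not run here. The fit was tested on simulated data. Alternatives covered the floor, the filter, the scaling, the block, the trend, the summary per gene and each mouse left out. Upstream sequences came from RefSeq (GRCm38.p6), read with Biopython 1.88.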

Additional observations from a re-analysis of the deposited data

Results flagged for a closer look

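The difference between the cohorts was itself different at 6 and 24 h for 3 genes, by a contrast chosen after the values were seen and lost when either TERT-on mouse was left out. The log2 difference between TERT-off and TERT-on skin at 24 h less that at 6 h was 6.48 for Ccl2, 6.01 for Ccl7 and 3.56 for Ccl4, each over 4 mice. In all 3 the TERT-off mice were below the TERT-on mice at 6 h and above them at 24 h.

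A probe set that lists Ccl27a with other genes stood outside the comparisons of the 10 members, since its signal cannot be given to 1 gene. Its lowest intensity in TERT-off skin over 6 to 24 h was 1083, above its highest in TERT-on skin at these times, 961. The other such probe set overlapped, with a lowest TERT-off value of 61.3 and a highest TERT-on value of 69.4.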

How the results depend on the processing

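The 20 called differences of single genes in the comparisons over 6 to 24 h, at 24 h and of 24 h against 6 h kept their sign under each alternative that gave a value. Differences that were not called did not all do so: at 0 h, 8 of 9 were positive, against 7 of 9 without TERT-off replicate 1 and 9 of 9 without TERT-on replicate 1, and at 6 h 6 of 9 were, against 5 of 9 without TERT-off replicate 1. Without any filter, the number of members called higher was 7 over 6 to 24 h in place of 9, 3 at 24 h in place of 5, and 1 for the difference at 24 h less that at 6 h in place of 3; the number of probe sets tested is larger there. With the replicate number as a block 9 members were called over 6 to 24 h, 7 at 24 h, and 2 for 24 h less 6 h. Same-numbered mice of the cohorts did not deviate together (correlations of -0.05, -0.12, 0.11 and 0.08 at the 4 times), so the numbers were not taken to pair them.

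With each mouse left out in turn, the number called higher ranged over 0 to 9 for 6 to 24 h, 0 to 2 at 0 h, 0 to 3 at 6 h, 0 to 2 at 12 h, and 0 to 7 at 24 h. It ranged over 0 to 3 for 24 h against 6 h within TERT-off skin and 0 to 2 for the difference of the cohorts in that change. Over 6 to 24 h, 2 members (Ccl6 and Ccl8) passed without TERT-on replicate 1 and none without TERT-on replicate 2, although 8 of 9 had an unadjusted p under 0.05 there (limma). Without TERT-off replicate 2, Ccl2 and Ccl7 passed at 0 h. With the 3 later arrays averaged per mouse, 6 members passed, and Ccl8, Ccl11 and Ccl17 did not (limma adjusted p = 0.055, 0.090 and 0.060). A lone array was assumed to vary like the other groups. Values near the floor, as for Ccl3, Ccr7 and Il6, limit what the arrays could show.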
